A study of Mus musculus with 388 samples.

Results

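The granulocyte granule and S100 genes described here are 10 of the 25000 genes in the deposited table: S100a8, S100a9, Ngp, Camp, Ltf, Lyz2, Mpo, Elane, Fcer1g and Cd53. They were chosen by symbol with earlier results on these cells known, in which they stood high in some Tomato− cells, so that their levels are given as a description with no test. All 10 were in the table. All 10 passed a filter on low genes, a mean of 1 CPM over the 4 sums of cells (2 groups in each of 2 orders), where CPM is the count scaled to the total of a cell or of a sum of cells. The cells were single bone marrow stromal cells of C57BL/6 mice, 2 months old, with the genotype KitMerCreMer; R26tdTomato. Tamoxifen had been given before birth, at E12.5/14.5, so that Cre expressed from the Kit gene could switch on tdTomato in fetal cells and their descendants. Tomato+ and Tomato− cells carried the same alleles and had the same treatment. The sort took PDGFRα+ cells without CD45 (leukocytes), Ter119 (red cells) or CD31 (endothelium). No cell is tied to an animal in the labels, so each group counts as 1 sample and no p-value was computed.

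S100a8 and S100a9 encode the 2 subunits of calprotectin, a calcium- and metal-binding protein that fills the cytosol of neutrophils. Neutrophils build their granules in waves as they mature in the marrow. Myeloperoxidase (Mpo) and neutrophil elastase (Elane) are made first, in promyelocytes, for the primary granules. The secondary granule proteins lactoferrin (Ltf), cathelicidin (Camp) and neutrophilic granule protein (Ngp) are made later, while lysozyme (Lyz2) is made by granulocytes, monocytes and macrophages. Fcer1g encodes the signalling chain shared by several Fc receptors, and Cd53 a tetraspanin of the leukocyte surface. C/EBP family factors and PU.1 are the best known activators of these genes.

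The 250 bases before the start of 4 members are printed because S100a8, S100a9 and Ngp were high together in the 8 cells described next and Ltf in 7 of them. All 10 members had an entry among the RefSeq promoters of GRCm38.p6. Capitals mark matches to 3 motifs, each searched on both strands. The first, of C/EBP type, is spelled TTGCNNAA. The second, of PU.1 type, is spelled GAGGAA and appears reversed and complemented where it lies on the other strand. The third is the TATA box, spelled TATAAA. No match overlaps another in the printed windows. Starts are those of RefSeq, which for S100a8, Ngp and Ltf lie inside the GENCODE genes. The printed windows lie at chr3:90668821-90669070 (plus strand) for S100a8, chr3:90695722-90695971 (minus strand) for S100a9, chr9:110419558-110419807 (plus strand) for Ngp and chr9:111019042-111019291 (plus strand) for Ltf.
S100a8: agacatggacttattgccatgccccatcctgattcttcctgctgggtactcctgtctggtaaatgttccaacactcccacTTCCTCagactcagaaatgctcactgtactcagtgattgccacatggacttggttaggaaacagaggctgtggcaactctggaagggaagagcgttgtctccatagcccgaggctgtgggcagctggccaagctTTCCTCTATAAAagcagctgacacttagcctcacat
S100a9: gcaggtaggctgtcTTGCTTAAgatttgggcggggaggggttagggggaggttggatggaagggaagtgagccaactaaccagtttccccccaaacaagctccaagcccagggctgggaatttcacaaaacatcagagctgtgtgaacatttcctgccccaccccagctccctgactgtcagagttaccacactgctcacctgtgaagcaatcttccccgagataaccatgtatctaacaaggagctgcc
Ngp: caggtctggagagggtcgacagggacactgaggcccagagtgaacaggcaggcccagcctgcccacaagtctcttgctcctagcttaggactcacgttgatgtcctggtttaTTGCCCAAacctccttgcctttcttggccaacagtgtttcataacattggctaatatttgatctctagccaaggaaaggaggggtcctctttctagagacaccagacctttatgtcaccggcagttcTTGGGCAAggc
Ltf: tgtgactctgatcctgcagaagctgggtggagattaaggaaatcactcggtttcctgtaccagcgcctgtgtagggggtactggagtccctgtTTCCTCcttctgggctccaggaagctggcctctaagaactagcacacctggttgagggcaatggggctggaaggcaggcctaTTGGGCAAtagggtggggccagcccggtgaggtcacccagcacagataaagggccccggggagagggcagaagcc
The C/EBP-type letters stood in 3 of the 10 members' windows (S100a9, Ngp and Ltf), against 9.56% of 32851 promoter windows of the same length. The PU.1-type letters stood in 5 of 10 (S100a8, Ltf, Mpo, Elane and Cd53), against 23.3%, and the TATA box in 1 of 10, S100a8, against 12.4%. These matches describe letters and not sites in use.

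In GENCODE M21 on GRCm38, S100a8 (chr3:90668978-90670035) and S100a9 (chr3:90692632-90695721) lie near each other on chromosome 3, which also holds Cd53 (chr3:106759921-106790149). Camp (chr9:109847379-109849617), Ngp (chr9:110419747-110423012) and Ltf (chr9:111019271-111042767) lie on chromosome 9. Elane (chr10:79886247-79888215) and Lyz2 (chr10:117277331-117282321) are on chromosome 10, Mpo (chr11:87793581-87804413) on chromosome 11 and Fcer1g (chr1:171229572-171234365) on chromosome 1. Mpo overlaps the gene Gm11505, which has no entry in the table, and no other annotated gene overlaps a member. Lyz2 has a near-identical neighbour, Lyz1, so that the division of their reads is uncertain.

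After removal of 2 shallow cells, which held 0 counts of the members, 386 cells remained. Cell titles name 2 orders, whose meaning the labels do not state. Order 1 kept the Tomato+ sets P1 (94 cells), P2 (5) and P3 (38) and the Tomato− set N2 (60). Order 2 kept the Tomato+ sets P1 and P2 (24 each) and the Tomato− sets N1 (71) and N2 (70). Total counts per cell ran from 18031 to 3833473, with a median of 679644.5. Column names place the order 2 cells in rows A to H and wells 1 to 12. Sets N1 (Tomato−, rows A to F) and P1 (Tomato+, rows G and H) are read here as plate 1, and N2 and P2 as plate 2; this reading comes from the names alone. No 2 columns held the same values. Against the labels, 8 cells of order 2 carried the leukocyte gene Ptprc (which encodes CD45) at 53.1 to 1139 CPM and Pdgfra at 0 to 9.49 CPM. In the order 2 cells other than these 8 and 2 further cells with high Mpo, the median Pdgfra level was 328.6 CPM and 24 cells held a Ptprc count. These 10 cells stand apart from the rest of the gate, and the ratios of order 2 are given below with and without them.

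**Figure D1:**
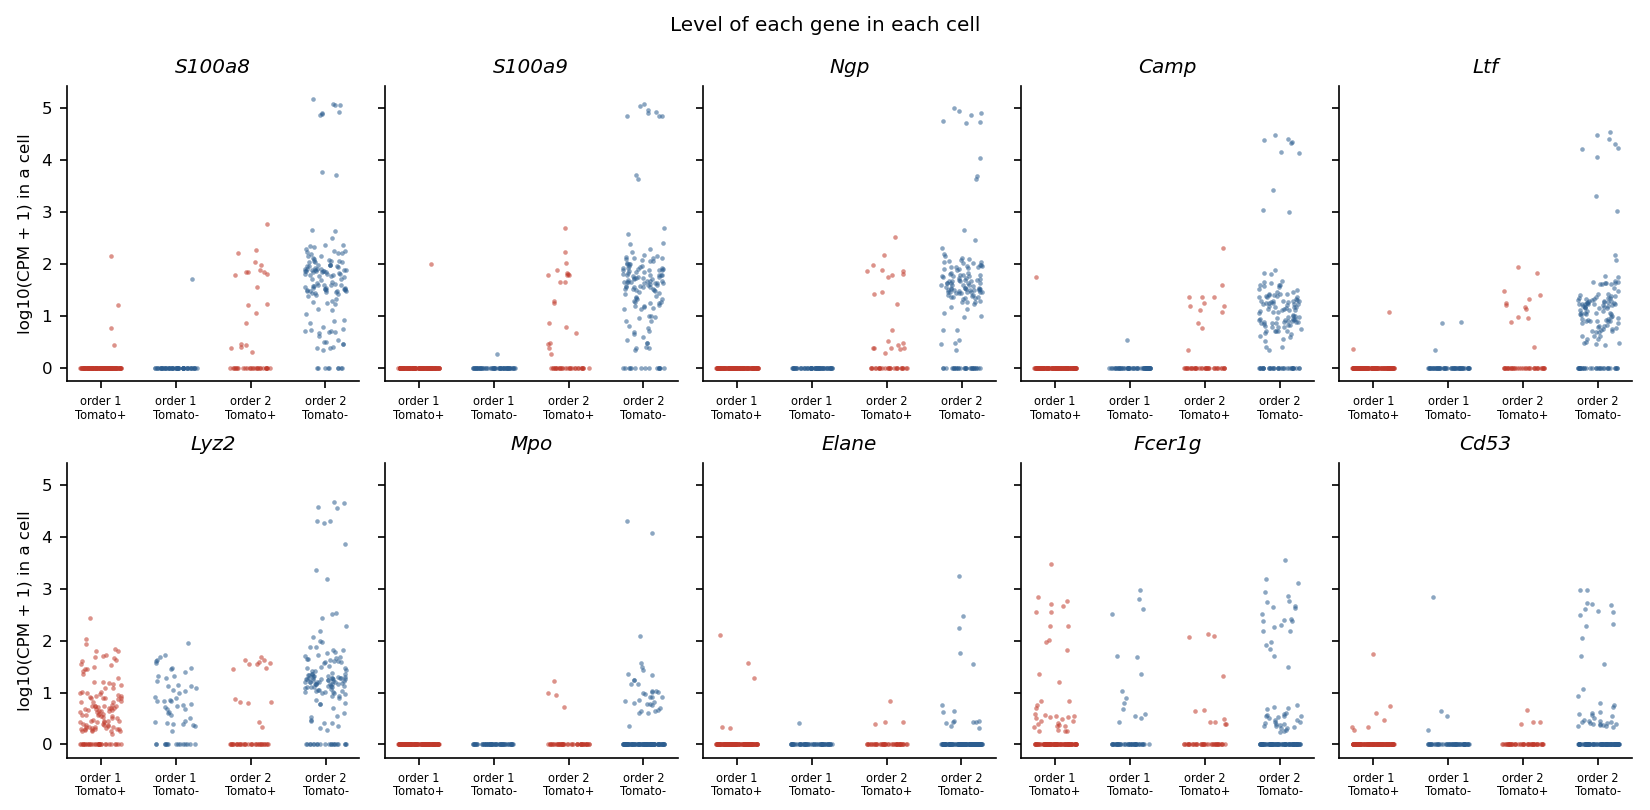
Level of each of the 10 genes in each cell, as log10 of CPM + 1 (vertical axis), for Tomato+ (red) and Tomato− (blue) cells of the 2 title orders; each point is 1 cell. The 6 genes from S100a8 to Lyz2 have a separate group of high points in Tomato− cells of order 2 and, in order 2, a broad band of low points.

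S100a8 was held at very high levels by 8 cells and at low levels by most others of order 2. These 8 cells, called the S100a8-high cells and numbered S1 to S8, held 18046 to 119759 S100a8 counts each, and the next cell in order held 345. In S1 to S8 the S100a8 level was 77416, 149203, 122630, 118312, 114728, 83717, 82765 and 75691 CPM. The lowest of the 8 thus stood far above every other cell: the highest level outside them was 5885 CPM, in a shallow cell with a total of 19881 counts. All 8 were Tomato− cells of order 2. They were 1 of 71 cells of set N1 and 7 of 70 of set N2, together 5.67% of the Tomato− cells of order 2 (95% Clopper-Pearson interval 2.48% to 10.9%, counting error only). Of the Tomato+ cells of order 2, 0 of 48 were S100a8-high, which allows a share of up to 6.25%. That range includes the 5.67% of Tomato− cells, so the 2 groups of order 2 cannot be told apart by this share. Of the Tomato+ cells of both orders together, 0 were S100a8-high, which allows up to 1.62%. In order 1, 0 cells of either group were, which allows up to 2.19% of Tomato+ and 5% of Tomato− cells.

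S100a9, the partner subunit, was high in the same 8 cells, at 70082 to 123160 CPM with a median of 83640 CPM. The next highest S100a9 count in any other cell was 295, against at least 18124 in each of the 8. The 10 members together took up 25.3% to 41.04% of all counts in these cells. Per kilobase of exon, the median level in the 8 cells was 160230 CPM for S100a9 and 142972 CPM for S100a8, ahead of Ngp at 52985, Camp at 29666, Lyz2 at 21190 and Ltf at 5456 CPM. Of the other 8 S100 genes in a list of 10, S100a11 alone reached 50 CPM in all 8 cells, at 405.4 to 8671 CPM, and S100a4 was at 0 in all 8.

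The secondary granule genes were high in the same cells, with 1 exception. Ngp, whose protein is stored in these granules, stood at 52182 to 100100 CPM in 7 of the 8 and at 11056 CPM in S3. Camp, the cathelicidin antimicrobial peptide, stood at 14025 to 30256 CPM in 7 and at 2657 CPM in S3. Ltf, which binds iron, stood at 11726 to 35106 CPM in 7 and at 149.5 CPM in S3. S3 was the lowest of the 8 for each of these 3 genes but not for S100a8 or S100a9. Lyz2 ranged from 7234 CPM in S8 to 46016 CPM in S6 and did not follow the same order.

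Several granule and maturation genes set S2 and S3 apart from the other 6 cells, while most did not. Of the 16 late granule genes, 4 were higher in both S2 and S3 than in any of the other 6 (Mmp8, Mmp9, Retnlg and Wfdc21), 2 were lower (Ltf and Chil3) and 10 overlapped. The names in this paragraph were chosen after their values were seen. Retnlg, a resistin-like gene of mature neutrophils, stood at 7738 CPM in S2 and 48016 CPM in S3, and at 0 to 127.7 CPM in the other 6. Mmp8, the neutrophil collagenase, stood at 2003 and 6191 CPM in S2 and S3 and at 0 in the other 6. Mmp9, a gelatinase, stood at 3618 and 2643 CPM in these 2 cells and at 0 to 188.7 CPM in the others. Of the 10 primary granule and promyelocyte genes, 0 were higher in both S2 and S3, 2 were lower (Fcnb and Serpinb1a) and 8 overlapped. Fcnb, a ficolin of earlier neutrophil stages, stood at 14.2 CPM in S2 and 0 in S3, against 459.9 to 3202 CPM in the other 6. Serpinb1a, an inhibitor of neutrophil proteases, stood at 52.2 CPM and 0, against 1110 to 2340 CPM. Cebpe, a transcription factor needed for secondary granules, was at 0 in S3 and at 177.5 to 806.9 CPM in the other 7. S2 and S3 had the lowest totals of the 8, with 210639 and 147158 counts against 842169 to 1362540.

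Fcer1g and Cd53 were present in the 8 cells at moderate levels. Fcer1g stood at 426.3 to 3584 CPM, highest in S2 and next highest in S3. Cd53 stood at 34.6 CPM in S1 and at 356.6 to 940.0 CPM in the other 7. Mpo and Elane, the primary granule genes among the members, were low there. Mpo was at 0 in 5 of the 8 and at most 22.02 CPM, and Elane was at 0 in 6 and at 303.3 CPM in S8.

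Mpo was high in 2 other cells, both Tomato− cells of set N2 in row A of plate 2. The cell called M1 held 11873 CPM of Mpo and the cell called M2 held 19974 CPM. No other cell held more than 30 Mpo counts, against 11457 and 14723 in these 2. Elane was at 58.03 CPM in M1 and at 1756 CPM in M2, so that 1 of the 2 was also high in Elane. Prtn3 and Ctsg, further primary granule proteases, stood at 959.6 and 2132 CPM in M1 and at 1296 and 3507 CPM in M2. M2 also held genes of basophils and mast cells: Cpa3 at 9012, Mcpt8 at 2454, Fcer1a at 2304 and Ms4a2 at 1408 CPM. In M1, Cpa3 was at 385.5 CPM, Mcpt8 at 1.04 CPM and the other 2 at 0. Their S100a8 levels of 78.8 and 4.07 CPM, and Ngp levels of 30.1 CPM and 0, were within the range of low reads in other cells.

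**Figure D2:**
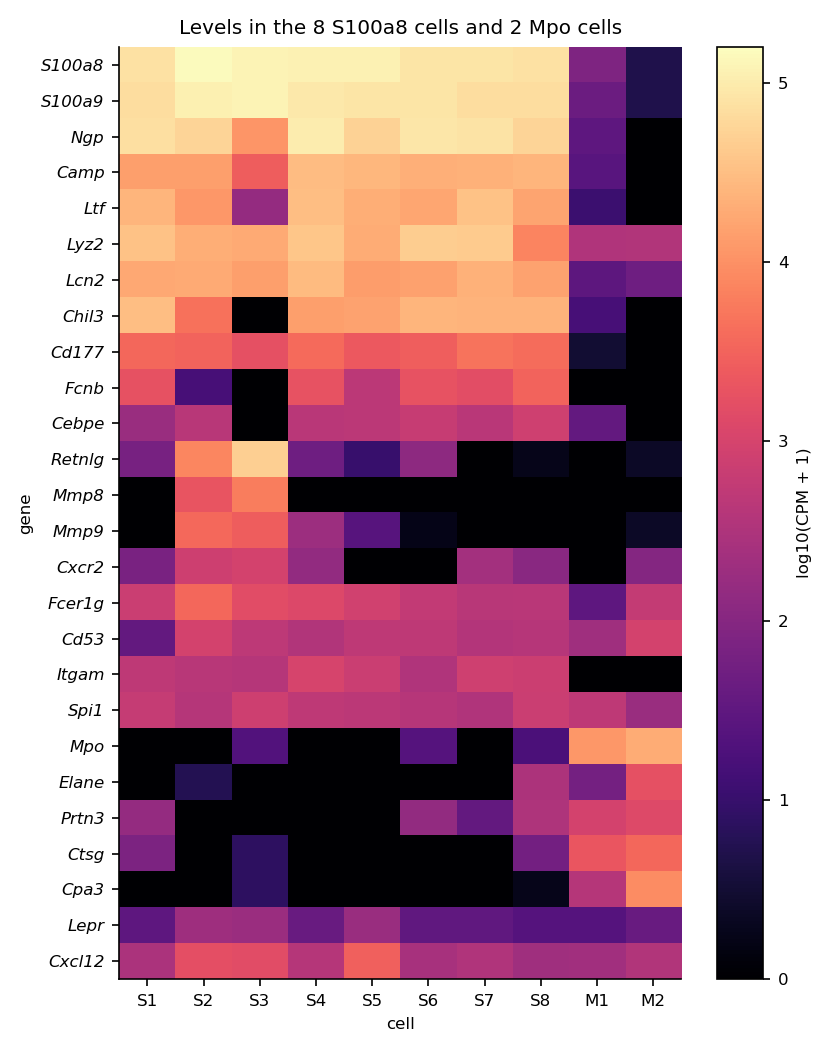
Level of 26 genes (vertical) in the 8 S100a8-high cells S1 to S8 and the 2 Mpo-high cells M1 and M2 (horizontal), as log10 of CPM + 1 (colour). S2 and S3 stand out by Retnlg, Mmp8 and Mmp9, and M1 and M2 by Mpo, Prtn3 and Ctsg.

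Marker lists for other cell types were mostly low in the 8 cells. Of 16 genes of granulocyte receptors and signalling (Fcer1g and Cd53 among them), 9 reached 50 CPM in all 8 cells and 15 in at least 1. Of 16 late granule genes (Ngp, Camp and Ltf among them), 9 reached 50 CPM in all 8 and 14 in at least 1. Of 10 primary granule and promyelocyte genes (Mpo and Elane among them), 0 reached 50 CPM in all 8 and 9 in at least 1. These 10 genes summed to a median of 3591 CPM in the 8 cells. Of 13 monocyte and macrophage genes, 9 were at 0 in all 8, among them Csf1r, Cd68, Adgre1 and C1qa. Ly6c2, by contrast, reached 50 CPM in all 8, at 547.7 to 2108 CPM, and Mpeg1 did so in 2. No gene of the lymphoid list reached 50 CPM in any of them. Of the 18 genes of Lepr+ marrow stroma, Hp stood at 1728 to 3151 CPM in the 8 cells. Its median in the order 2 cells outside the 10 was 3383 CPM, while Lepr had medians of 35.9 CPM in the 8 and 4428 CPM outside the 10. With Hp included, the 18 genes summed to 2302 to 6728 CPM in the 8 cells, against a median of 99181 CPM in the order 2 cells outside the 10. Their part in the results below was not tested.

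Tomato+ and Tomato− cells were compared as summed counts within each order, with the level given as CPM of the sum. In order 2, all 10 members were lower in Tomato+ cells by more than 1.5-fold, a threshold that 25.2% of the 12410 genes passed in that direction. Mpo and Elane passed the filter on low genes only through the 10 high cells, all of them Tomato−. Without those cells, both had a mean under 1 CPM over the 4 sums. S100a8 stood at 32.9 CPM in Tomato+ and 6728 CPM in Tomato− cells, a log2 ratio (of CPM + 1, Tomato+ over Tomato−) of −7.63. S100a9 had a ratio of −7.76, Ngp −7.91, Camp −7.54, Ltf −7.79, Lyz2 −8.11 and Mpo −7.28. Elane, Fcer1g and Cd53 had ratios of −4.06, −2.94 and −5.20. The median over the members was −7.59, and that over all 12410 genes was −0.06.

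In order 1, by contrast, 5 of 10 members were higher in Tomato+ cells by more than 1.5-fold, against 35.1% of genes, and 2 were lower (Fcer1g and Cd53), against 25.1%. Ngp and Mpo held 0 counts in both groups of order 1, which allows up to 0.0269 CPM in Tomato+ and 0.0912 CPM in Tomato− cells. The 5 higher members rested on single cells or low counts. S100a8 held 265 counts in Tomato+ cells, 98.9% of them in 1 cell, and 34 counts in Tomato− cells, all in 1 cell. S100a9 had all its Tomato+ counts in that same cell, 1.62 CPM of the sum, against 1 count in Tomato− cells. As a plain ratio of CPM, neither log2 nor with 1 added, this was 53.4 (9.46 to 2121, exact counting interval). Camp held 71 counts in 1 Tomato+ cell against 1 count, a plain ratio of 20.9 (3.64 to 838.9). Elane stood at 0.98 CPM, from 5 Tomato+ cells, against 1 count, a plain ratio of 32.2 (5.65 to 1282). Without the top cell of each gene in each group, the order 1 log2 ratios of S100a8, S100a9, Camp and Lyz2 lay between 0 and 0.04. That of Elane was 0.45.

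The groups were also compared within batches read from the names. All ratios in this paragraph are log2 ratios of CPM + 1. Within the library codes of order 1 that hold both groups, 83 Tomato+ and 60 Tomato− cells, S100a8 was at 0 in Tomato+ cells and at 1.03 CPM in Tomato− cells, so that its direction was the opposite of that of the whole order. S100a9 was at 0 against 0.03 CPM (1 count) there, so that its ratio of 1.35 over the whole order was not found within these codes. Camp, Lyz2 and Elane kept ratios of 0.92, 0.83 and 1.24 there, Cd53 one of −4.54, and Fcer1g one of −0.48, short of 1.5-fold. In order 2, the S100a8 ratio was −7.39 on plate 1 and −7.70 on plate 2. Mpo had ratios of −1.10 and −7.70 and Elane of −1.10 and −4.83 on the 2 plates, Fcer1g −3.96 and −2.77, and Cd53 −1.27 and −5.84. Without the 10 high cells, the S100a8 ratio was −2.11 on plate 1 and −0.48 on plate 2. Fcer1g was then at −3.25 on plate 1 and at 0.44 on plate 2, where its direction turned, and Elane at −1.12 and 0.08. Cd53 was at −0.72 and −2.87.

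Over both orders, 2 of 10 members were lower in Tomato+ cells by more than 1.5-fold each time (Fcer1g and Cd53), against 6.79% of genes, and 0 were higher each time, against 6.13%. Fcer1g had log2 ratios of −0.73 and −2.94, and Cd53 of −4.58 and −5.20. The Cd53 value of order 1 came from 1 cell: without the top cell of each group it was −0.12, and that of Fcer1g was −0.37, so that neither passed the threshold in both orders. S100a8, S100a9, Camp, Lyz2 and Elane had opposite signs in the 2 orders, past 1.5-fold in each; this held for 13.1% of genes.

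Of the Tomato− counts of order 2, the 10 high cells held 99.1% to 99.4% for 7 members, 95.9% for Elane, 89.6% for Cd53 and 80.3% for Fcer1g. The 8 S100a8-high cells held 99.2% of the S100a8 counts of Tomato− cells in order 2, and 98.9% to 99.4% of those of S100a9, Ngp, Camp, Ltf and Lyz2. M1 and M2 and the 8 together held 99.3% of the Mpo counts. Without the 10 cells, S100a8 stood at 58.4 CPM in Tomato− cells against 32.9 CPM in Tomato+, a log2 ratio of −0.81. The other ratios were then −0.84 for S100a9, −0.90 for Ngp, −0.47 for Camp, −0.94 for Ltf, −1.45 for Lyz2, −0.73 for Mpo, −0.61 for Elane, −0.80 for Fcer1g and −2.30 for Cd53. In this comparison 9 of 10 members were past 1.5-fold, Mpo and Elane among them. Of the 12172 genes that passed the filter on low genes without the 10 cells, 21.4% were lower likewise. Mpo and Elane did not pass that filter, so the members' count and this share are not over like sets. In bulk sums like these, fewer cells of a type and less RNA per cell cannot be told apart; the single-cell counts above give the number of high cells directly.

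**Figure D3:**
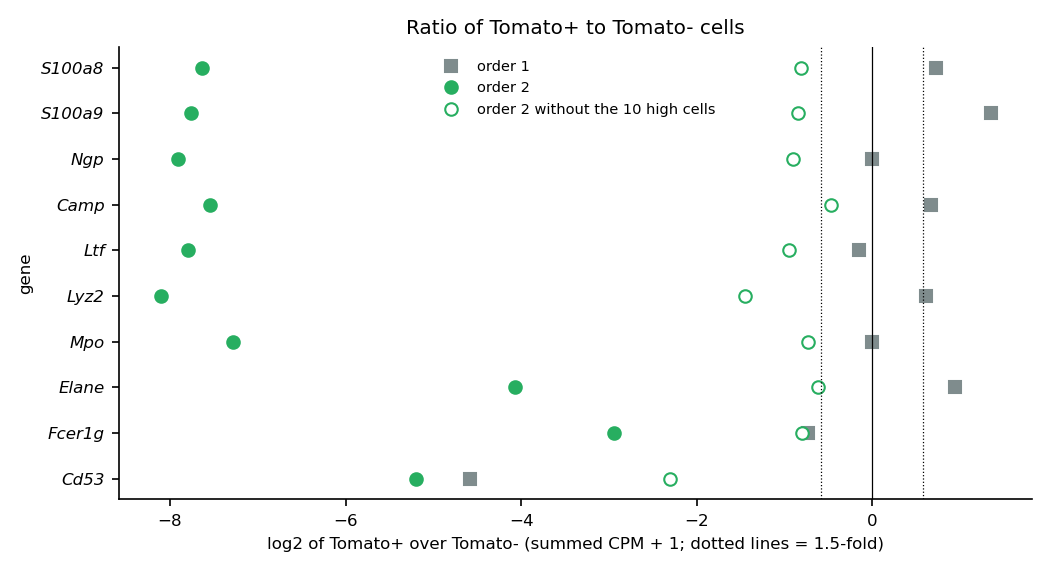
Log2 ratio of Tomato+ to Tomato− cells for each gene, from summed CPM + 1, in order 1 (grey squares), in order 2 (filled circles) and in order 2 without the 10 high cells (open circles). For S100a8 the 3 values are 0.73, −7.63 and −0.81.

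Low S100a8 reads were found in most order 2 cells, in a pattern of rows and wells that matched the places of the S100a8-high cells. The classes used in this account were set up after this pattern had been seen. A source is a cell with at least 1000 counts of the gene, and an order 2 cell shares an address with a source if it has the same row letter on either plate, or the same well number on the same plate. Of the cells that shared both a row letter and a well number with sources, 27 of 27 held S100a8, at 23 counts or more, with a median of 78. Of those that shared a row letter only, 82 of 82 held it, with a median of 23 counts (1 to 84). Of those that shared a well number only, 21 of 21 held it, with a median of 44 (11 to 345). Of the 51 cells that shared neither, 15 held a count, with a median of 0 and 2 cells at 5 counts or more.

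Sharing of row letters reached across the plates, and sharing of well numbers did not. In rows whose letter was that of a source on the other plate only, 47 of 47 cells held S100a8, with a median of 21 counts. In wells whose number was that of a source on the other plate only, and with no other shared address, 7 of 21 cells held it, with a median of 0. Row B of plate 1 is an example: it has no source, while row B of plate 2 has 2 sources, and its 12 cells held 39 to 79 S100a8 counts. Rows C, G and H of plate 2 share no letter with a source on either plate. Their cells in wells 3, 4, 5, 8, 9 and 12, the well numbers of the plate's sources, held S100a8 in 18 of 18 cases, at 11 to 345 counts. Of the 18 cells in their other wells, 5 held a count and 1 held 5 or more. On plate 1, whose 1 source is in well 6, the 3 cells of rows C, G and H in well 6 held 17 to 92 S100a8 counts, and of the 33 in other wells 1 held 5 or more.

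**Figure D4:**
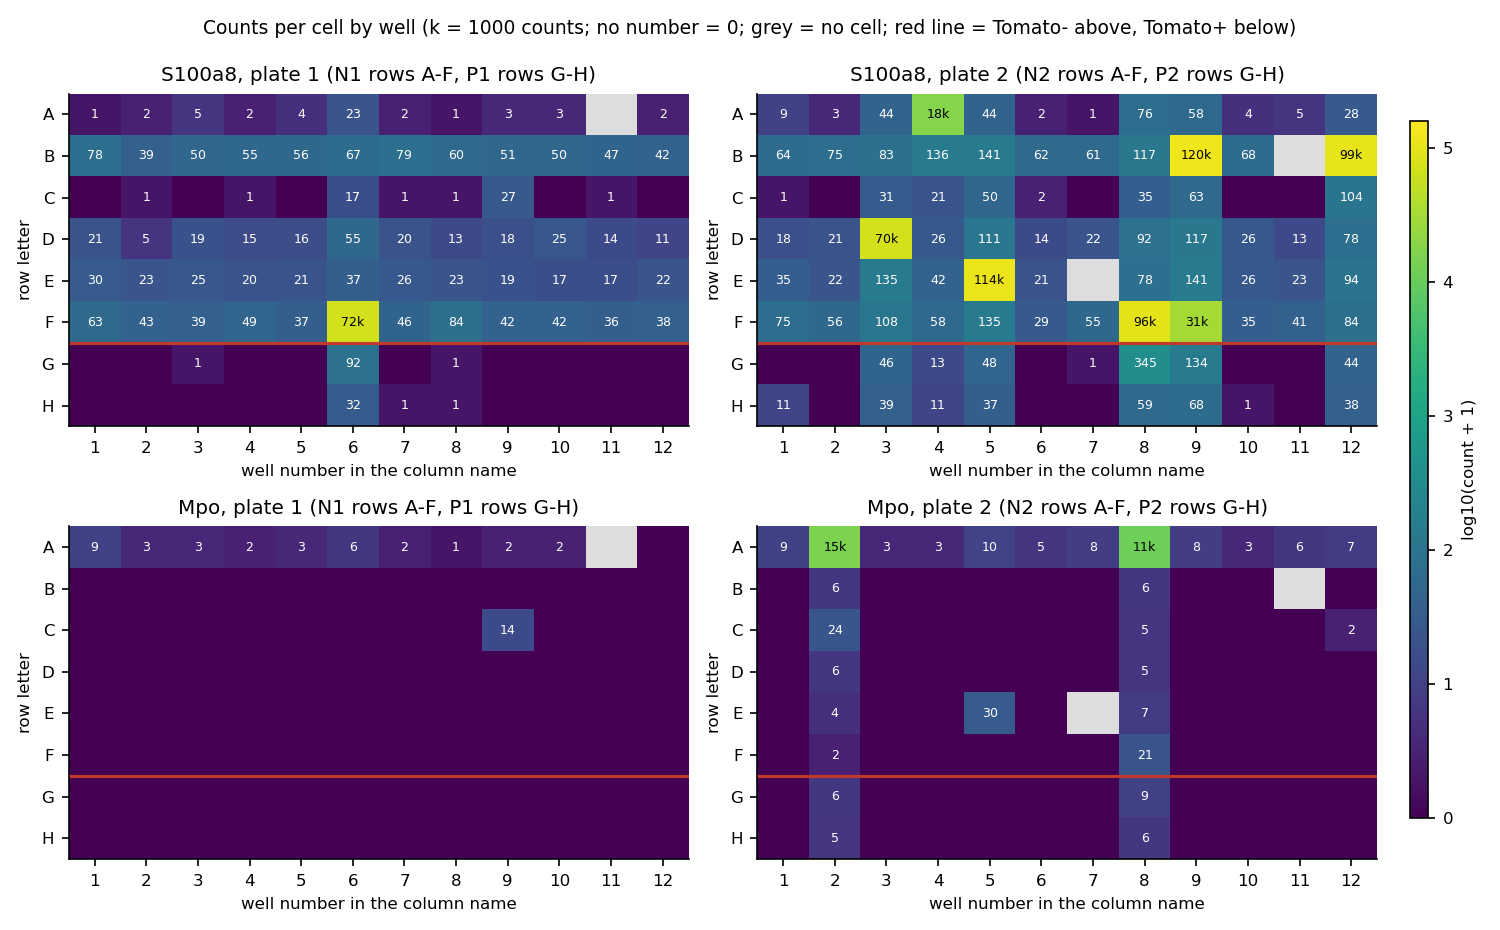
Counts of S100a8 (upper) and Mpo (lower) in each order 2 cell, placed by row letter (vertical) and well number (horizontal) on the 2 plates read from the column names; colour is log10 of count + 1. Rows that share a letter with a high cell on either plate, and wells that share its number on its plate, form lines of low counts; row B of plate 1, which has no high cell, held 39 to 79 S100a8 counts, and row B of plate 2 has 2 high cells.

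All Tomato+ cells of order 2 lie in rows G and H, where no source lies, so they share addresses by well number alone. Of the 48, 14 shared a well number with a source, and all 14 held at least 5 S100a8 counts. Of the other 34, 1 did. Those 14 cells held 98.3% of the Tomato+ S100a8 counts of order 2. Of the Tomato− cells other than the 8, 87.2% shared an address with a source, and they held 99.3% of the counts. The 2 groups differ in how many of their cells lie in a row with a source letter, so that their low reads and their Tomato label cannot be told apart by these sums.

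Mpo showed the same layout around other wells. Its 2 sources lie in wells 2 and 8 of row A on plate 2. Of 21 other cells with the letter A, 20 held Mpo, with a median of 3 counts. Of 14 cells in wells 2 and 8 of plate 2, 14 held it, with a median of 6 counts. Of the cells that shared neither, 3 (1.97%) did. Row A of plate 1 has no Mpo source, and 10 of its 11 cells held 1 to 9 counts. S100a9, Ngp, Camp, Ltf and Lyz2 followed S100a8: 84.1% to 100% of cells with a shared row letter or well number held a count, in each class, against 5.63% to 21.6% of cells with neither.

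**Figure D5:**
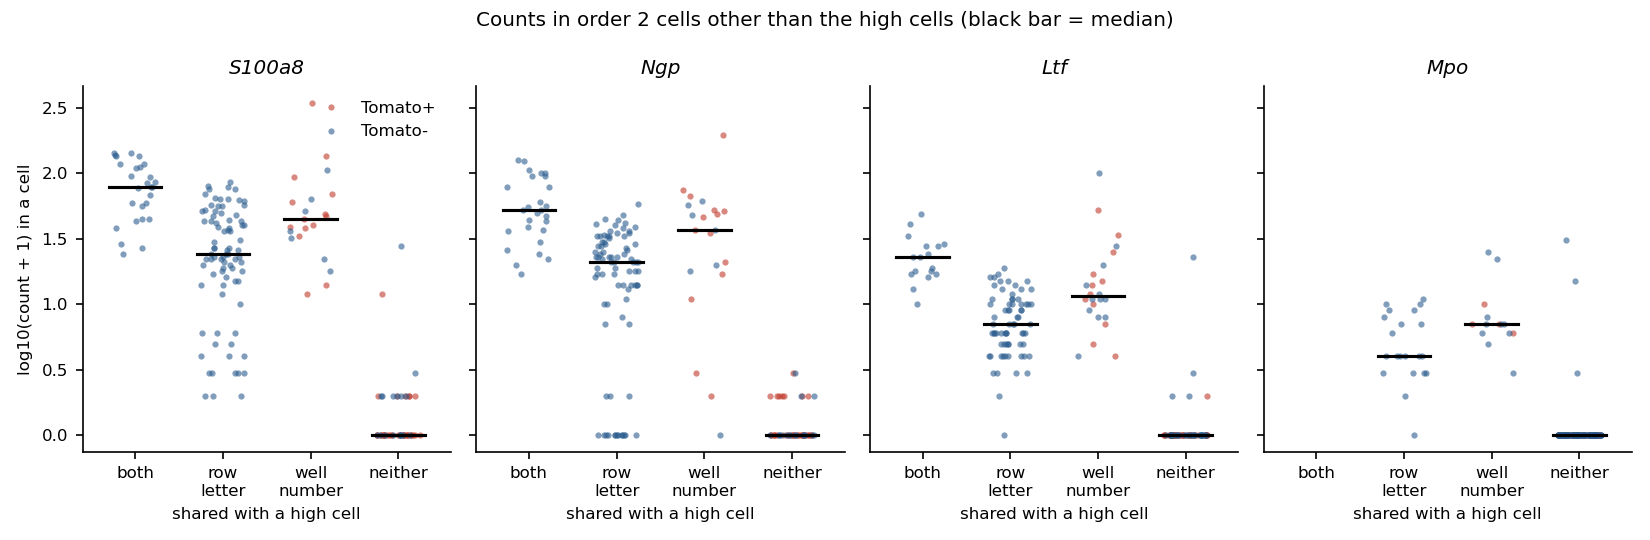
Counts in each order 2 cell other than the sources (points; red Tomato+, blue Tomato−; black bars are medians), as log10 of count + 1, by whether the cell shares a row letter, a well number, both or neither with a source of the gene. Medians for S100a8 were 78, 23, 44 and 0 counts for both, row letter, well number and neither.

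For 6 of 7 genes, the low counts at shared addresses ranked more with the counts of the sources than with the total of the cell that held them. Across the 130 order 2 cells that share an address with an S100a8 source, Spearman's rho of the S100a8 count was 0.81 with the summed counts of those sources and 0.12 with the cell's own total. For S100a9, Ngp, Camp, Ltf and Lyz2, rho was 0.47 to 0.79 with the sources and 0.08 to 0.14 with the total, and for Mpo, over 35 cells, −0.34 and 0.30. These cells share rows, wells and sources, so the values are a description only. Summed over its shared addresses, a cell held a median of 0.0273% of its sources' counts for S100a8, 0.0239% for S100a9, 0.0233% for Ngp, 0.0209% for Camp, 0.0215% for Ltf, 0.0267% for Lyz2 and 0.0272% for Mpo. The source counts of these 7 genes ran from 26180 for Mpo to 620169 for S100a8 over all sources. All but Mpo have their sources among the 8 S100a8-high cells, so their shares are not independent. Elane and Fcer1g, with 1 source each, had median shares of 0 and 0.0774%. In row B of plate 1, S100a8 counts differed 2.03-fold between cells while totals differed 11.1-fold. In row E of plate 1, they differed 2.18-fold while totals differed 19.7-fold. Other rows varied more: 23-fold in row A of plate 1, where totals differed 1.96-fold, and 6.71-fold in row E of plate 2, where they differed 2.197-fold. In CPM, shallow cells therefore stood high: the cell with 5885 CPM of S100a8 shares row D and well 9 with sources.

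The low reads also carried the genes in nearly the proportions of the 8 cells. Per 100 S100a8 counts, the 8 cells held 86.3 S100a9, 78.9 Ngp, 24.3 Camp, 23.95 Ltf and 32.9 Lyz2 counts, and the other order 2 cells held 80.4, 68.01, 19.8, 21.7 and 33.5. Fcer1g and Cd53 did not follow: the other cells held 28.9 and 7.04 per 100, against 0.865 and 0.428 in the 8. Stromal genes showed the reverse relation. In the 10 high cells, Lepr, Cxcl12, Adipoq and Kitl stood at medians of 0.0329%, 0.0291%, 0.0359% and 0.0309% of the counts at their shared addresses. S5 stood apart, at 0.148% for Lepr, 0.237% for Cxcl12 (2946 CPM) and 0.245% for Adipoq, but at 0.0212% for Kitl. The cause of the low reads was not tested.

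Shares of cells with a count thus differ from shares of cells with a high level. Of the Tomato− cells of order 2, 93.6% (88.2% to 97.04%) held at least 1 S100a8 count and 79.4% held at least 5. In Tomato+ cells of order 2, 21 of 48 (43.8%, 29.5% to 58.8%) held a count and 15 held at least 5. When counts up to 0.2% of those at shared addresses were set to 0, a step added after the data were seen, 9 Tomato− and 2 Tomato+ cells of order 2 kept 5 or more S100a8 counts. For Ngp, 8 and 1 cells then held 5 or more, against 75.9% and 25% of cells before, and for Ltf 9 and 1, against 84 and 10 before. Thinned to 150000 counts per cell, which leaves out 6 Tomato− cells, 85.2% of Tomato− and 39.6% of Tomato+ cells of order 2 held S100a8.

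The planned rule called a cell an expresser at 50 CPM and at least 10% of the highest count in its pool, the cells that share a library code in the column names (a plate row in order 2). It called 47 expressers of S100a8 and 35 cells with at least 3 of the 10 members, 27 of them Tomato− and 8 Tomato+, all in order 2. Of these 35 cells, 27 held less than 1000 CPM of S100a8, 23 held at least 1000 CPM of the stromal gene Lepr and 21 held no Ptprc. In plate rows without a source, the row's highest count was itself a low read, so the rule called low reads there. Counts of at least 1000 separated the cells more clearly for 7 members: 8 cells for S100a8, S100a9, Ngp and Lyz2, 7 for Camp and Ltf, and 2 for Mpo. They did not do so for Elane and Fcer1g, with 1 cell each and the next cells at 386 and 760 counts, or for Cd53, with 0 cells and its highest cell at 693.4 CPM.

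A few cells held members above what their addresses give. A Tomato+ cell in row G, well 8 of plate 2 held 345 S100a8, 295 S100a9 and 51 Ltf counts, with Ngp at 330.9 and Camp at 206.4 CPM, and shares well 8 with S8. It held 422 counts of the endothelial gene Pecam1 and 40.9 CPM of Lepr. A Tomato− cell of set N1 with no shared address held 27 S100a8, 28 S100a9, 20 Elane and 14 Mpo counts of a total of 115651, with Lepr at 7073 CPM. In order 1, a Tomato+ cell of set P3 held S100a8 and S100a9 at 144.9 and 100.1 CPM with Lepr at 2474 CPM. It held 0 counts of Ptprc, as did every cell of order 1. Camp at 71 counts and Elane at 68 counts stood in 2 further Tomato+ cells of order 1, with Lepr at 5143 and 3937 CPM. Ltf at 99 counts stood in a Tomato− cell of set N1 with Lepr at 3588 CPM.

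Lyz2 differed from the other granule genes by its low counts in order 1, where no source was present. There, 77.4% of Tomato+ cells (69.4% to 84.1%) and 75% of Tomato− cells (62.1% to 85.3%) held at least 1 count, with a median of 2 counts in each group. At 5 counts or more the numbers were 41 and 12 cells. In sum, Lyz2 stood at 8.09 CPM in Tomato+ and 4.93 CPM in Tomato− cells of order 1. The Tomato+ sum was 40.7% from 1 cell, which held 367 Lyz2, 90 Fcer1g and 40 Tyrobp counts beside 2564 CPM of Lepr. Thinned to 150000 counts, 45.1% and 49.1% of the cells held Lyz2. In Tomato+ cells of order 2, 15 of 48 held it.

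Fcer1g had a pattern of its own, with high levels in single cells of every group. Outside the 10 high cells, and by the rule of 50 CPM and 10% of the pool's highest count, 31 cells held Fcer1g at 65.6 to 3007 CPM. They were 12 Tomato+ (8.76%) and 4 Tomato− cells (6.67%) of order 1, and 3 Tomato+ (6.25%) and 12 Tomato− cells (8.51%) of order 2. The 95% intervals of the 4 shares ran from 1.31% to 17.2% at the widest. They cover counting error over cells only and do not compare the groups, each of which counts as 1 sample. Of the 31 cells, 28 held at least 1000 CPM of Lepr, 29 held no Ptprc, 27 held no Tyrobp (a signalling adaptor of myeloid cells) and 26 held no other member at 50 CPM. Ptprc was at 0 counts in every cell of order 1, so its absence does not set cells of that order apart. In order 2, 3 of the 3 Tomato+ and 10 of the 12 Tomato− cells held none. The highest of the 31 cells, at 3007 CPM from 646 counts, was a Tomato+ cell of set P1 in order 1 with Lepr at 526.0 CPM.

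Cd53 was found in few cells beyond the high ones. In order 2, 13 Tomato− and 0 Tomato+ cells held at least 5 counts, and 10 of the 13 were the high cells. Of the other 3, 1 held 285 and 1 held 80 Cd53 counts; both were set N2 cells with the B-cell gene Cd79a at 2077 and 1054 CPM. In order 1, a single Tomato− cell held 99.4% of its group's counts, at 693.4 CPM, with Lepr at 1543 CPM. It held 0 Ptprc counts, as did every cell of order 1.

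Across the 386 cells, the genes whose log2(CPM + 1) went most closely with that of the summed members, out of 13389 compared, were Chil3, Lcn2, Cd177, Lcp1, Wfdc21, Pglyrp1, Ncf1, Coro1a, Ifitm6 and Rac2, with Pearson r from 0.77 to 0.64. Lcn2, the granule protein lipocalin 2, stood at 13552 to 28670 CPM in the 8 cells. Chil3 stood at up to 31842 CPM but at 0 in S3. Among the members, r was 0.98 between S100a8 and S100a9 and 0.92 between S100a8 and Ltf, but 0.24 between S100a8 and Mpo and 0.28 between S100a8 and Fcer1g. Without the 10 high cells these 4 values were 0.98, 0.89, 0.25 and −0.003. These cells share plates and the low reads above, so the values describe the table and carry no test.

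Related genes, from lists chosen with earlier results known, were lower in Tomato+ cells of order 2 as the members were. Of 10 primary granule, 16 late granule and 16 receptor and signalling genes, 10, 14 and 13 passed the filter on low genes, and each of these was lower by more than 1.5-fold, against 25.2% of all genes. The 10 high cells carry most of these genes' reads, so that many passed the filter through them alone: without the 10 cells, 2, 7 and 6 genes passed it and 1, 3 and 5 of them were lower, against 21.4% of genes. Late granule genes summed to a median of 160333 CPM in the 8 cells and 173.1 CPM in other order 2 cells. In both orders, 1 of 10 (Serpinb1a), 1 of 16 (Mmp9) and 3 of 16 (Fcgr3, a low-affinity Fc receptor, with Fcer1g and Cd53) did, against 6.79%; without the 10 cells 1, 0 and 2 did, against 6.19%. Serpinb1a had log2 ratios of −3.67 and −6.35 and Mmp9 of −2.71 and −0.84. In order 1, both genes had a median of 0 over the cells, with the highest cells at 331.7 and 274.9 CPM. The Tomato− sum of Serpinb1a there was 11.8 CPM. Their order 1 ratios can thus rest on single cells, as that of Cd53 did, and values without the top cell were not computed for them. Of 9 myeloid transcription factors, 0 passed in both orders. Runx1 and Cebpd, with the highest levels among them, had log2 ratios of 0.25 and 0.94 in order 1, and of 0.09 and −0.48 in order 2. Of 12 monocyte and macrophage genes with a count, 5 passed the filter on low genes, and of these 1 was lower (Mpeg1) and 1 higher (Mrc1) in both orders. The list medians in order 2 were −4.51 for primary granule, −6.03 for late granule and −4.57 for receptor and signalling genes, and were the same to 2 decimals with a group at 0 set to its floor of 3 counts. Without the 10 cells they were −0.31, −0.40 and −0.46, against −0.03 over all genes. Markers of other cell types moved with the label too: 7 of 10 endothelial genes (Pecam1, Cdh5, Kdr, Emcn, Plvap, Tie1 and Tek) and 3 of 7 megakaryocyte genes (Pf4, Ppbp and Gp1bb) were higher in Tomato+ cells in both orders, against 6.13% of genes. Of 8 pericyte and smooth muscle genes, 4 were lower in both (Rgs5, Myh11, Tagln and Abcc9) and 1 was higher (Kcnj8). Cd74 among 7 dendritic genes with a count, Car2 among 10 erythroid and Cxcl14 among 18 stromal genes were higher in both, and Car1 was lower. In the S100, lymphoid and basophil lists, 0 genes passed in both orders. In order 2, 7 lymphoid genes passed the filter on low genes, and all 7 were lower by more than 1.5-fold. Their list had a median of −4.26. Without the 10 high cells these were again 7 and 7, with a list median of −4.35. Of 6 basophil genes past the filter 5 were lower, and without the 10 cells 0 of 1 was. In the S100 list 3 of 10 were lower in order 2, with and without the 10 cells. The part of these cell types in the members' ratios was not tested.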

How the data were processed

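Each deposited sample is 1 cell of 1 table. Per the file headers, the deposited values are expected counts, which need not be whole; 4.91% of values above 0 were not. The build GRCm38 and the tools HTSeq 0.6.0, StringTie 1.3.3b and HISAT are listed in the submitters' processing notes, without the role of each. Per the labels' protocols, RNA was amplified before sequencing, with no mention of molecular identifiers, so intervals cover counting error only. No label states whether counting used strand.

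Expected counts were rounded. A cell was kept from 1000 genes and 10000 counts upward (386 of 388). No column was left unused. Counts were summed per group and order and scaled to CPM; ratios used CPM + 1, so that changes of low genes come out too small. Tests were left out because no replicate is named. Intervals are exact at 95% (Poisson for sums, Clopper-Pearson for shares), and a count of 0 allows 3 counts. Positions come from GENCODE M21. Python 3.11.15, numpy 2.4.6, pandas 2.3.3 and scipy 1.17.1 were used, and the steps were tested on simulated data. No doublet caller was run.

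The members, the 14 gene lists and the rules were chosen with earlier results of these data known. By rule, the named genes were the members, list genes past 1.5-fold in both orders (or the 2 highest), the 10 most similar genes and genes of the sort; other genes, among them those that describe the high cells, were picked with their values known. The 1000-count rule, the address classes, the 0.2% step and the values without the 10 cells were added after the data were seen. Alternatives are described in the closing section.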

Additional observations from a re-analysis of the deposited data

Results flagged for a closer look

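The direction of the Tomato+ to Tomato− ratio differed between the 2 title orders for 5 members; each order is 1 pair of summed groups, and the difference between orders was not tested. The log2 ratios in order 1 and order 2 were 0.73 and −7.63 for S100a8, 1.35 and −7.76 for S100a9, and 0.67 and −7.54 for Camp. They were 0.62 and −8.11 for Lyz2 and 0.94 and −4.06 for Elane. For S100a8, S100a9 and Camp, 98.9% to 100% of the Tomato+ counts of order 1 stood in 1 cell each. Within the library codes of order 1 that hold both groups, the ratios of S100a8 and S100a9 were −1.02 and −0.04.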

How the results depend on the processing

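No paired analysis was possible because replicate numbers were given in accession order and no test was made; ratios within batches stand in its place. The median of the members' log2 ratios, each averaged over both orders, was −3.54. It was −0.38 without cells holding 5 or more Ptprc counts and −0.39 without the 10 high cells, an alternative added after the data were seen. S100a9, Camp and Elane had means above 0 in these 2 settings. The median was −8.05 when cells were summed over both orders and −4.83 over the 3 batches that hold both groups. It was −1.21 as the mean of the 2 plates of order 2 without the 10 high cells, also added later. Leaving out 1 title set at a time gave −7.59 (without N2 of order 1, which leaves order 2 alone) to −2.38 (without N2 of order 2). The count of members lower in both orders was 2 as reported. It was 1 with the mean of per-cell CPM and 1 at 2-fold. It fell to 0 once the highest cell for a gene was dropped from every group. With 1 set left out, the values ran from 2 to 10. The value of 10 came without N2 of order 1, so it counts members lower in order 2 alone. Cells summed over both orders also gave 10, from a single ratio per gene. Neither 10 is a count of members lower in both orders.

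The expresser rule called 5.80% of the pairs of a cell and a member, and 35 cells with 3 or more members. These were 8.76% and 58 with no pool criterion, 11.7% and 65 at 10 CPM, 2.69% and 13 at 200 CPM, and 1.295% and 8 at 1000 or more counts (added later); 12 cells had at least 5 members. In order 2 pools with an expresser, the share of other cells with a count was higher than in pools without by a median over the members of 18.2 percentage points, by 31.9 at 200 CPM and by 35.6 at 1000 counts. For S100a8 and S100a9 it was lower instead, 72.9% against 100% and 70.4% against 90.9%, with 1 pool of 11 cells holding no expresser.

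The median share of cells with a count, over the 10 members, was 76.95% in Tomato− cells of order 2. It was 58.9% at 5 or more counts, 40.8% with counts under 1% of the pool's highest set to 0, 65.6% after thinning and 8.51% with counts up to 0.2% of those at shared addresses set to 0. That last step, also added later, took the Tomato+ median of order 2 from 27.1% to 5.21%. At 5 or more counts the Tomato− median of order 1 went from 1.67% to 0. The cause of these changes was not tested. CPM of the shallowest cells rest on few counts, as in the cell with 19881 counts in all.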
